A study of Mus musculus with 8 samples.

Results

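Guanylate cyclase and cGMP signalling genes were examined in the E18.5 mouse cortex with and without the kinase NUAK1. The genes were named one by one as 10 symbols, among them the 3 subunits of soluble guanylate cyclase Gucy1b3, Gucy1a3 and Gucy1a2, the neuronal nitric oxide synthase Nos1, the cGMP-dependent kinases Prkg1 and Prkg2, and the phosphodiesterases Pde1a, Pde2a, Pde5a and Pde9a. The count table has 21165 rows, and 9 of the 10 symbols are among them. Prkg1 was not analysed here. All 9 passed the filter on low counts, which kept 12699 genes for the test. The genes were proposed with the KO against WT values of these libraries in view, so those values are given as a description and no test is read from them. Libraries came from whole cortices of 4 embryos of a constitutive Nuak1 KO line, in which every cell carries the deletion and KO animals do not survive birth, and from 4 WT embryos, all on a C57Bl/6JRj background. Per the sample labels both genotypes came from the same 3 litters, while the design text of the series counts 4, with 2 males among the KO embryos and 1 among the WT embryos. The table names its columns by genotype and running number alone, so a library is named here by genotype and number, as in KO library R1, and no library could be tied to a litter or a sex.

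Cyclic GMP is a second messenger. Nitric oxide, made by Nos1 in neurons, binds the heme of soluble guanylate cyclase, a heterodimer of 1 alpha subunit (Gucy1a3 or Gucy1a2) with the beta subunit Gucy1b3, and the activated enzyme makes cGMP from GTP. The messenger then acts on the kinases PRKG1 and PRKG2 and on cyclic nucleotide-gated channels, and phosphodiesterases end the signal by hydrolysis. In the developing cortex this pathway is known for its part in the response of growing axons and dendrites to guidance cues, and in the adult brain for synaptic plasticity.

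Totals ranged from 9643711 to 27014858 counts, with the smallest total in WT library R4. Nuak1 itself had between 11.1 and 20.5 normalized counts in KO and between 877 and 1445 in WT, so every column followed its genotype. A normalized count is the count a library would have at the average effective size of the 8 libraries. The 6 tested markers of cortical excitatory neurons were detected in all 8 libraries. KO library R1 and WT library R4 stood apart from the rest. The summed meningeal fibroblast markers were 10950 normalized counts in KO library R1 and at most 661 in any other library. In WT library R4 the summed excitatory markers were 12433, against 15755 to 17714 in the other WT libraries. Log2 fold changes of the cGMP genes that rest on either library are given with and without it.

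The beta subunit and the main alpha subunit of soluble guanylate cyclase are neighbours in the genome. On NCBIM37, the assembly behind mm9, Gucy1b3 (ENSMUSG00000028005.8) spans bases 81835926 to 81878633 of chromosome 3 on the minus strand and Gucy1a3 (ENSMUSG00000033910.8) the same strand from 81896350 to 81949799, with 17.7 kb between them. Gucy1b3 has 14 annotated exon blocks and Gucy1a3 has 9. The alternative alpha subunit Gucy1a2 is on the plus strand of chromosome 9 from 3532354 to 3897342. The sequences around the starts of Gucy1b3 and Gucy1a3 are shown because these 2 genes were both higher in KO and share a locus. They are RefSeq windows of 300 bases on GRCm38.p6, which is another build than that of the counts, and run from 250 bases before the start to 50 after it. RefSeq calls the genes Gucy1b1 and Gucy1a1 and gives 1 start for the former and 2 for the latter. The windows are chr3:82074662-82074961 for Gucy1b3 and chr3:82145601-82145900 and chr3:82145024-82145323 for Gucy1a3, all on the minus strand. Capitals mark CCAAT and GGGCGG, the CCAAT box and the GC box, on either strand.

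Gucy1b3: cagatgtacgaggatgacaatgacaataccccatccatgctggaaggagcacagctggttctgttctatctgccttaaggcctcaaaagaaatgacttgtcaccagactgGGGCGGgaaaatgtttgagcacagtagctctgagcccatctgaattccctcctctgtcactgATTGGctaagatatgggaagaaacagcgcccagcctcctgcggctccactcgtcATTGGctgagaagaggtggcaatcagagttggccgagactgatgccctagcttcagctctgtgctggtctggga
Gucy1a3, start 1: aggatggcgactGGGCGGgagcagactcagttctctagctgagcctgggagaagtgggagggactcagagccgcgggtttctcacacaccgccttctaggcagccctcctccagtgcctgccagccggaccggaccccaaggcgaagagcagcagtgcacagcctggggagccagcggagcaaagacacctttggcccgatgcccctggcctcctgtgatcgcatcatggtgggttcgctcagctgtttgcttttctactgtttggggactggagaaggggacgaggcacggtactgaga
Gucy1a3, start 2: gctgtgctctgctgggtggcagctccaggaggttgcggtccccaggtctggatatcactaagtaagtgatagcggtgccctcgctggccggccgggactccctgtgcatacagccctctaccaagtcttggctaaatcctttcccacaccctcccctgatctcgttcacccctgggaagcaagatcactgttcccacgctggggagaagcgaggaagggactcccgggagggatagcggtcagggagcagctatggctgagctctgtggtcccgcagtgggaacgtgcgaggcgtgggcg

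The Gucy1b3 window holds CCAAT 2 times, both times on the opposite strand as ATTGG, and GGGCGG 1 time. The window of the first Gucy1a3 start holds GGGCGG 1 time, and the second holds neither. These motifs are common, since CCAAT is in 37.4% and GGGCGG in 35.7% of the 32851 windows of this length. None of the 3 windows holds TATAAA, TGACGTCA (the cAMP response element) or CACGTG, which are in 13.6%, 1.79% and 7.15% of all windows. Windows were found for 8 of the 10 genes, 17 in all, of which 6 hold CCAAT and 7 hold GGGCGG. Of the 4 windows of Pde1a, 2 hold CCAAT and 2 hold TATAAA. A match is given as a description only, and every motif was searched on both strands.

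Per exon length, the genes spanned a wide range of levels in WT cortex. The level is given as CPM per kb of exon, from the effective library size. Gucy1b3 had a mean of 55.2 (42.2 to 65.8, n = 4), above 91.5% of 12185 genes tested that have a length, and Pde2a, a cGMP-stimulated phosphodiesterase, had 51.0 ± 7.09 (SD, n = 4). The ranges of these 2 genes overlapped and Gucy1b3 was the higher in 2 of the 4 WT libraries. Gucy1a3 followed with 38.6 ± 7.11 and was lower than Pde2a in all 4 WT libraries. Pde9a, which hydrolyses cGMP with high affinity, had 30.1 ± 2.28, and its range overlapped that of Gucy1a3. Pde1a and Nos1 did not differ beyond their spread, with 6.51 ± 2.34 and 6.30 ± 0.372. Gucy1a2 had 2.79 ± 0.246, Pde5a 1.35 ± 0.313 and Prkg2 0.239 ± 0.133, and in each of these steps the ranges were apart. In KO cortex Gucy1b3 stayed at the top with 76.5 ± 5.47, while Gucy1a3 at 49.1 ± 3.78 stood above Pde2a at 42.9 ± 5.95. The KO mean of Nos1 stood above that of Pde1a. In WT, Pde1a was above Nos1 in 1 of the 4 libraries, R4, where Pde1a had 9.97.

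**Figure D1:**
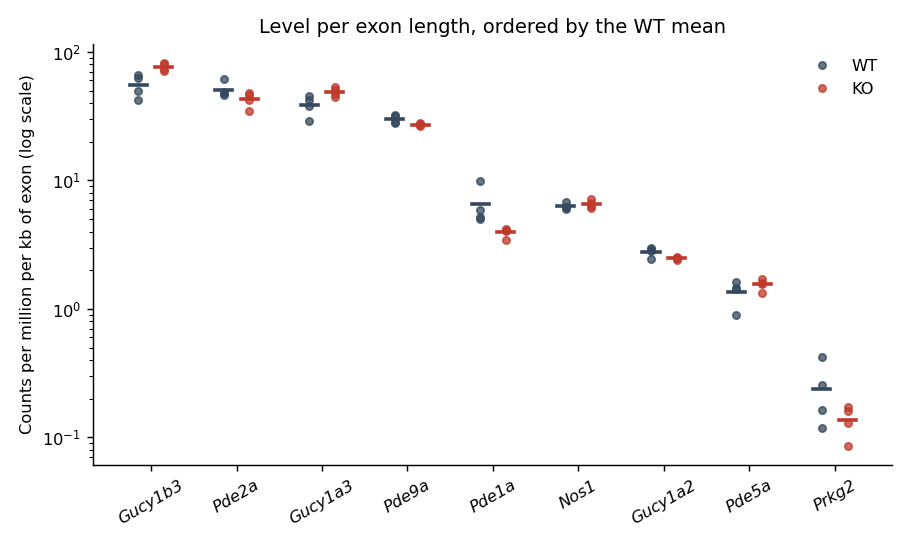
CPM per kb of exon on a log axis for the 9 genes, ordered by the WT mean, with a point for each of the 4 WT (dark) and 4 KO (red) libraries and a bar for the mean. Gucy1b3, Pde2a, Gucy1a3 and Pde9a lie above 25 in all libraries, and Prkg2 lies below 0.5 in all of them.

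Among the 9 genes, Gucy1b3 and Gucy1a3 were higher in KO and Pde1a and Pde2a lower at the thresholds of the study, an absolute log2 fold change over 0.25 with an unadjusted p under 0.05. Of all genes tested, 4.25% were past them in edgeR's quasi-likelihood test, 2.45% higher and 1.80% lower in KO. The count of 4 among 9 is a description, since this contrast was in view when the genes were proposed. At an adjusted p of 0.05, which 0.0709% of all genes passed, edgeR called 0 of the 9, with 5 at an unadjusted p under 0.05 beside 7.69% of all genes. DESeq2 called 1, Gucy1b3, of the 8 to which it gave an adjusted p, beside 0.638% of all genes with one. At an unadjusted p under 0.05 DESeq2 had 5 of the 9, beside 7.21% of all genes. Libraries of the genotypes did not overlap for 3 of the 9, Gucy1b3, Pde1a and Pde9a, beside 4.49% of all genes tested. Of the 9, 4 were higher and 5 lower in KO, with a median log2 fold change of -0.14 beside -0.01 over all genes tested.

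**Figure D2:**
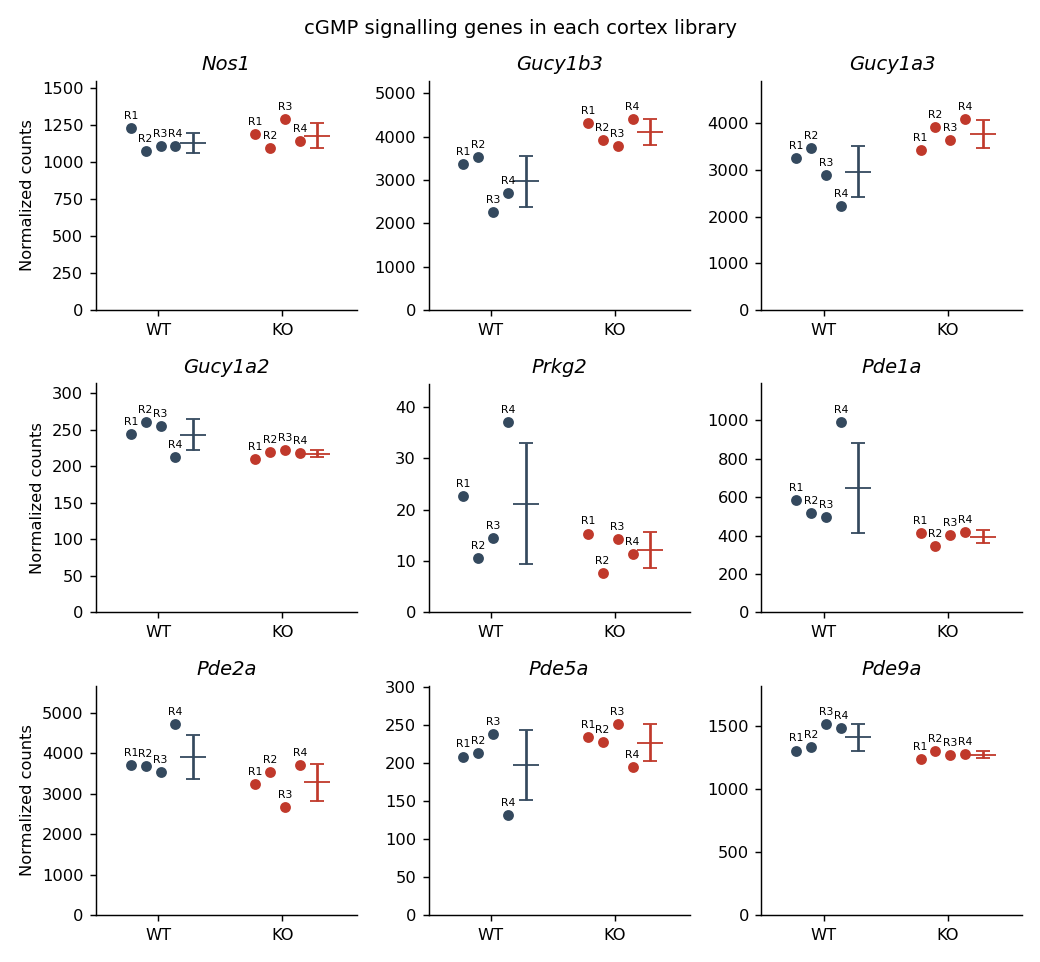
Normalized counts of the 9 genes in each library, with WT in dark and KO in red, each point labelled with its library number and the bar giving the mean and SD of 4 libraries. All KO libraries lie above all WT libraries for Gucy1b3, and below them for Pde1a and Pde9a, and WT library R4 is the highest for Prkg2, Pde1a and Pde2a.

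Gucy1b3, without which neither alpha subunit forms an active enzyme, had 4309, 3924, 3792 and 4399 normalized counts in KO libraries R1 to R4 and 3361, 3533, 2267 and 2691 in WT libraries R1 to R4. The lowest KO library was above the highest WT library, as in 2.64% of all genes tested, and WT libraries R3 and R4 were the low ones. The mean was 4106 ± 294 in KO and 2963 ± 589 in WT (SD over 4 libraries). This is a log2 fold change of 0.47 (standard error 0.12), with the KO mean higher by 38.6%. Leaving out single libraries gave log2 fold changes between 0.36, without WT library R3, and 0.56, without WT library R2.

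Gucy1a3, the main alpha subunit, had 3435, 3920, 3647 and 4092 normalized counts in KO libraries R1 to R4 and 3255, 3481, 2897 and 2230 in WT libraries R1 to R4. KO libraries R2, R3 and R4 exceeded all WT libraries, and KO library R1 lay just under WT library R2, so the genotypes overlapped. The log2 fold change was 0.34 (standard error 0.12), and without WT library R4 it was 0.24 and no longer past the thresholds. WT library R3 was the lowest for Gucy1b3, whereas WT library R4 was the lowest for Gucy1a3.

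Gucy1a2, the alpha subunit that carries a PDZ-binding end and is found at synapses, had 210, 219, 222 and 218 normalized counts in KO libraries R1 to R4 and 245, 261, 255 and 213 in WT libraries R1 to R4. The difference was -0.17 on the log2 scale (standard error 0.09), with WT library R4 inside the range of KO. Without WT library R4 it was -0.22. Per exon length, Gucy1a2 made up 4.84 ± 0.311% of both alpha subunits in KO and 6.84 ± 0.770% in WT (SD over 4 libraries). This share ranged from 4.48% to 5.11% in KO and from 6.20% to 7.76% in WT, without overlap. It was computed after the values of its genes had been seen. Gucy1a3 was 64.4 ± 6.14% of Gucy1b3 in KO and 70.9 ± 13.2% in WT, per exon length, and here the genotypes overlapped.

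The genes on either side of the pair were looked at in the same way. Mtap9, which codes for a microtubule-associated protein and lies on the side of Gucy1a3, had 2858 ± 263 normalized counts in KO and 2815 ± 190 in WT (SD over 4 libraries), and the genotypes overlapped. The log2 fold change was 0.02 (standard error 0.07) with an edgeR adjusted p of 0.965. Npy2r, a receptor of neuropeptide Y, and Tdo2, a tryptophan dioxygenase, had at most 18.6 and 21.7 normalized counts in any library and did not pass the filter on low counts. Accn5, the gene nearest to Gucy1b3, had at most 1.69.

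**Figure D3:**
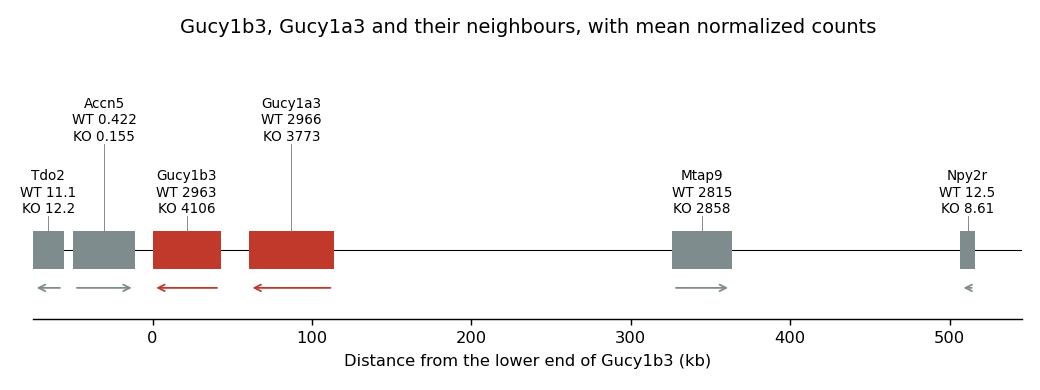
Map of Gucy1b3 and Gucy1a3 (red) with the 2 nearest genes of the count table on each side (grey), drawn to scale in kb from the lower end of Gucy1b3, with arrows for the direction of transcription and mean normalized counts of 4 WT and 4 KO libraries above each gene. The 2 cyclase genes lie 17.7 kb apart on the same strand, and Mtap9, the only neighbour at a similar level, has 2815 in WT and 2858 in KO.

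Markers of upper-layer neurons, like the 2 cyclase genes, were higher in KO. All 6 upper-layer markers, of which 1 is also on the excitatory list, had a positive log2 fold change, with a median of 0.28, and their sum ranged from 14362 to 15574 normalized counts in KO and from 10163 to 13565 in WT, or from 12256 without WT library R4. The sum of the excitatory markers, of which 4 of 6 tested were higher, ranged from 17938 to 19937 in KO and from 12433 to 17714 in WT, or from 15755 without WT library R4. Interneuron markers went the other way, with 0 of 11 higher and sums of 3853 to 4275 in KO and 3964 to 5283 in WT, or up to 4814 without WT library R4. Deep-layer sums overlapped, from 8786 to 10032 in KO and from 8349 to 11059 in WT. Without KO library R1 and WT library R4 they did not overlap, at 9215 to 10032 in KO and 10630 to 11059 in WT. Past the thresholds upward were 1 of 7 deep-layer and 2 of 6 upper-layer markers, beside 2.45% of all genes tested. Downward there were 3 of 7 and 0 of 6, beside 1.80%. Progenitor sums ranged from 26516 to 31877 in KO and from 27112 to 36848 in WT, with 1 of 10 higher. Their part in the values of Gucy1b3 and Gucy1a3 was not tested. In RNA from whole tissue, fewer cells of a type and less RNA per cell cannot be told apart.

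Pericytes, smooth muscle and endothelium also use this pathway in vessels. Pericyte and smooth muscle markers summed to 2165 to 3162 normalized counts in KO and 2234 to 2362 in WT, with 9 of 10 higher, and endothelial markers to 3985 to 6205 in KO and 3709 to 4278 in WT, with 11 of 11 tested higher. KO library R1 was the highest for both, and without it the KO sums reached 2505 and 4649. Without it the log2 fold change of Gucy1b3 was 0.45 and that of Gucy1a3 0.39, and their relation to these markers was not tested. Sums of the remaining lists overlapped between the genotypes, at 754 to 1142 in KO and 661 to 1025 in WT for striatal neurons (7 of 7 tested higher), 441 to 565 and 436 to 598 for hippocampal neurons (3 of 5), 1095 to 1740 and 934 to 1365 for microglia (7 of 7 tested) and 617 to 4738 and 611 to 1422 for red blood cells (3 of 4 tested). All 6 tested meningeal markers were higher. The sum of the 10 listed was 10950 in KO library R1. Without that library it ranged from 473 to 661 in KO, against 368 to 517 in WT.

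Nos1, the enzyme that makes nitric oxide in neurons, had 1186, 1092, 1290 and 1140 normalized counts in KO libraries R1 to R4 and 1227, 1073, 1110 and 1111 in WT libraries R1 to R4. The genotypes overlapped, and the log2 fold change was 0.06 (standard error 0.07). Prkg2, the membrane-bound cGMP-dependent kinase, was close to the limit of detection, with 12, 5, 23 and 17 raw counts in KO libraries R1 to R4 and 22, 12, 11 and 22 in WT libraries R1 to R4. Counting error alone puts the lowest of these, 5, between 1.62 and 11.7 (exact 95% Poisson interval). Its log2 fold change of -0.70 had a standard error of 0.40 and was -0.34 without WT library R4, which held 37.2 normalized counts. The genotypes overlapped for Prkg2.

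Pde1a, a phosphodiesterase that calcium and calmodulin activate and that hydrolyses cGMP and cAMP, is encoded on chromosome 2 between 79674610 and 79969632 (NCBIM37, minus strand) and has 12 annotated transcripts. KO libraries R1 to R4 had 413, 344, 403 and 420 normalized counts and WT libraries R1 to R4 had 588, 517, 495 and 993. Every KO library was below every WT library, as in 1.85% of all genes tested, and WT library R4 was far above the others. The mean was 395 ± 34.8 in KO and 648 ± 233 in WT (SD over 4 libraries), and the log2 fold change was -0.70 (standard error 0.19). Without WT library R4 the log2 fold change was -0.42 and still past the thresholds.

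Pde2a, which cGMP itself activates and which then hydrolyses cAMP and cGMP, lies on chromosome 7 from 108570212 to 108661340 (NCBIM37). It had 3236, 3544, 2671 and 3708 normalized counts in KO libraries R1 to R4 and 3716, 3678, 3551 and 4728 in WT libraries R1 to R4. KO library R4 fell inside the range of WT. The log2 fold change of -0.25 (standard error 0.11) was at the edge of the threshold. Pde2a was not past the thresholds in 10 of 13 other settings, among them without WT library R4 (-0.15) and without KO library R3 (-0.16).

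Pde9a, specific for cGMP, had 1241, 1304, 1272 and 1280 normalized counts in KO libraries R1 to R4 and 1307, 1332, 1517 and 1488 in WT libraries R1 to R4. All KO libraries were below all WT libraries, by a small margin, since the highest KO library and the lowest WT library were 1304 and 1307. The log2 fold change was -0.14 (standard error 0.06), inside the threshold of 0.25. Pde5a, the target of sildenafil and also specific for cGMP, had 234, 228, 251 and 194 normalized counts in KO libraries R1 to R4 and 209, 213, 238 and 132 in WT libraries R1 to R4. The genotypes overlapped, the log2 fold change was 0.19 (standard error 0.16), and without WT library R4 it was 0.05.

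Per exon length, the 4 phosphodiesterases together amounted to 99.0 ± 6.64% of the level of Gucy1b3 in KO and 167 ± 43.5% in WT (SD over 4 libraries). The range was 92.8% to 108% in KO and 126% to 208% in WT, and WT libraries R3 and R4 were the high ones. Among the 4, Pde2a held 56.5 ± 3.61% in KO and 57.2 ± 2.07% in WT and Pde9a 36.2 ± 2.77% and 34.0 ± 3.10%, so these shares differed by less than the spread between libraries. The share of Pde1a was 5.28 ± 0.688% in KO and 7.18 ± 1.67% in WT, with an overlap of 1 KO library and 1 WT library. These shares were also computed after the values had been seen, and sums of transcripts say nothing of enzyme activity.

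**Figure D4:**
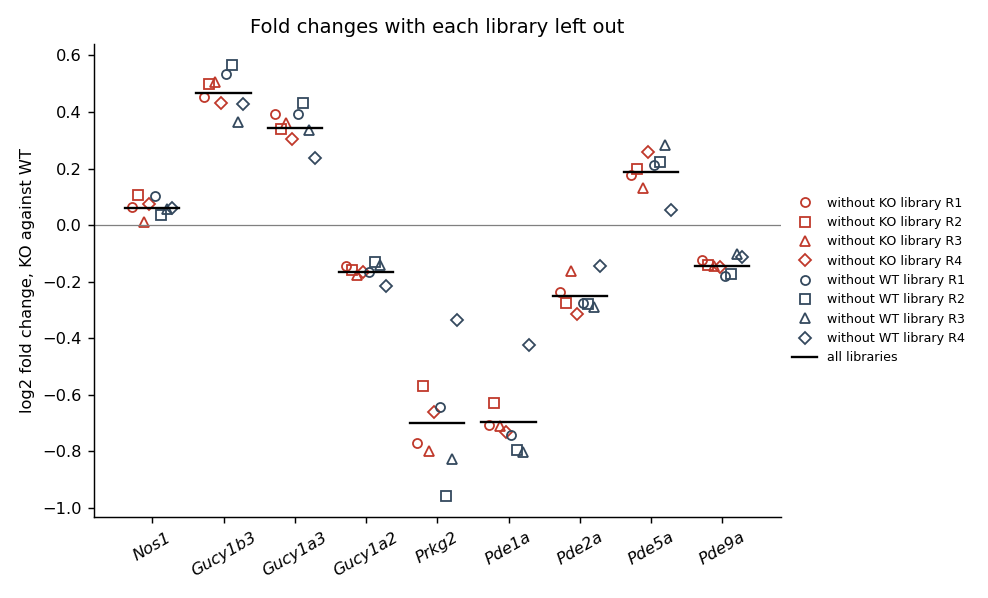
Log2 fold change of KO against WT for the 9 genes with all libraries (black bar) and with each library left out in turn (red symbols for KO, dark symbols for WT, shape by library number). Leaving out WT library R4 moves Pde1a from -0.70 to -0.42, Prkg2 from -0.70 to -0.34 and Pde5a from 0.19 to 0.05, and no gene changes sign.

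The rest of the pathway, with 8 cAMP-specific phosphodiesterases beside it, was taken as 73 further genes listed by family and role. They comprise other cyclases with natriuretic peptides and receptors, nitric oxide supply and handling, cyclase partners, other phosphodiesterases, and cGMP-gated channels with kinase targets. Of these, 49 passed the filter on low counts. The 49 include 7 of the cAMP-specific phosphodiesterases, 6 of them higher in KO. Past the thresholds were 4 of the 49, or 8.16%, beside 4.25% of all genes tested, 0 of them higher and 4 lower in KO. Their median log2 fold change was 0.02, with 31 higher and 18 lower. At an adjusted p of 0.05 edgeR called 0 of the 49 and DESeq2 0 of the 41 to which it gave one. At an unadjusted p under 0.05 there were 7 of the 49 in edgeR, beside 7.69% of all genes, and 8 in DESeq2, beside 7.21%.

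Pde11a, which hydrolyses both cyclic nucleotides, had 8.97, 13.7, 6.19 and 6.07 normalized counts in KO libraries R1 to R4 and 21.6, 11.4, 25.1 and 16.9 in WT libraries R1 to R4. It was low throughout, and KO library R2 lay above WT library R2. Its log2 fold change was -1.19 (standard error 0.38, edgeR adjusted p of 0.526). Pde1c, the calcium-activated relative of Pde1a, had 133, 114, 162 and 138 in KO libraries R1 to R4 and 171, 198, 169 and 191 in WT libraries R1 to R4, without overlap. Its log2 fold change was -0.40 (standard error 0.13, edgeR adjusted p of 0.524). The third gene of that family, Pde1b, was not past the thresholds, with a log2 fold change of 0.05 (standard error 0.08). On the list of other phosphodiesterases that act on cGMP, 7 genes passed the filter, among them Pde6d, a subunit that is not itself catalytic. Of the 7, 2 were past the thresholds, beside 4.25% of all genes, and the log2 fold changes ranged from -1.19 to 0.20. The 7 cAMP-specific phosphodiesterases tested ranged from -0.13 to 0.26, with 0 past the thresholds, and the 2 families were not compared by a test.

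Npr3, the natriuretic peptide receptor that clears its ligands and has no cyclase domain, had 117, 152, 112 and 107 normalized counts in KO libraries R1 to R4 and 144, 208, 201 and 149 in WT libraries R1 to R4. KO library R2 lay within the range of WT, and the log2 fold change was -0.55 (standard error 0.16, edgeR adjusted p of 0.483). The receptor cyclase Npr2, the most abundant receptor of the list in normalized counts, had a log2 fold change of -0.05 (standard error 0.07).

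None of the 14 tested genes of nitric oxide supply and handling was past the thresholds, with log2 fold changes from -0.11 to 0.38, and 10 of them were higher in KO. Nor was any of the 7 cyclase partners, which include the chaperones Hsp90aa1 and Hsp90ab1 and the postsynaptic scaffold Dlg4, with a range from -0.14 to 0.13. Of the cGMP-gated channels and kinase targets, 9 were tested and 1 was past the thresholds, beside 4.25% of all genes tested. A further 23 listed genes had too few counts to be tested, 4 of them with no count in any library and the others with at most 14 in a library. They include the atrial and brain natriuretic peptides Nppa and Nppb and the photoreceptor cyclases Gucy2e and Gucy2f.

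**Figure D5:**
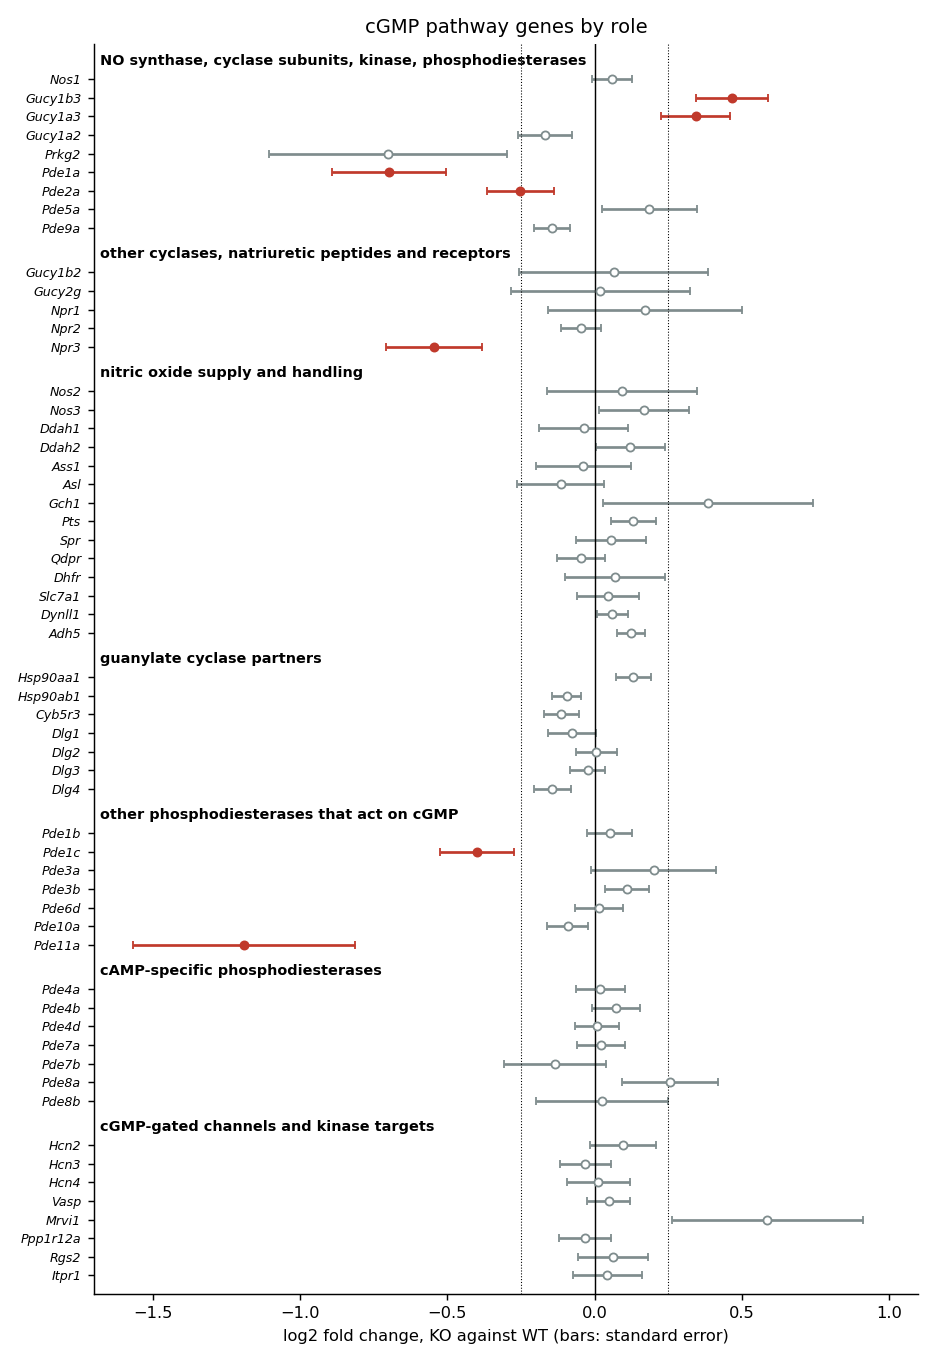
Log2 fold change of KO against WT with its standard error for the 9 genes (top group) and the further listed genes reported here. These are grouped by role and include the cAMP-specific phosphodiesterases, with dotted lines at 0.25 in both directions. Filled red points are past the thresholds, namely Gucy1b3 and Gucy1a3 to the right and Pde1a, Pde2a, Npr3, Pde1c and Pde11a to the left.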

How the data were processed

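Poly-A RNA of 8 cortices (4 KO, 4 WT) was sequenced from libraries of a stranded kit. After trimming (Cutadapt 1.13, Prinseq), the authors aligned reads with TopHat2 2.0.13 to mm9, used SAMtools 0.1.19, and obtained reads per gene from HTSeq-count. They deposited these whole-number counts without normalization. The setting for strand and the handling of reads shared by near-identical copies are not given in the sources used here.

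KO was compared with WT by the quasi-likelihood test of edgeR 4.0.16 under R 4.3.3, after filterByExpr and TMM scaling, with Benjamini-Hochberg adjustment over 12699 genes. The standard error is the log2 fold change divided by the square root of F. DESeq2 1.42.0, the tool of the study, was an alternative. The fit was tested on simulated data. Exon lengths came from GENCODE vM1 on NCBIM37. The members and the pathway and marker lists were chosen with earlier results of these data known. Named genes are the members, Nuak1, listed pathway genes past the thresholds and neighbours of adjacent members. Pde1b, Npr2 and group examples were named afterwards. Nos1ap and Prkg1 were not analysed here, and values of 1 pathway gene past the thresholds are not reported here. P-values set the difference between genotypes against the spread between these embryos, in which litter and sex were not separated. All pairs within a genotype differed beyond sampling noise, since chi-square per degree of freedom was 5.73 or more. Other settings left out each library, changed the filter on low counts or used DESeq2's size factors.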

Additional observations from a re-analysis of the deposited data

Results flagged for a closer look

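Dixon's ratio compares the distance of an extreme library from its nearest neighbour with the range of its genotype. It passed the 95% critical value in 1 of 32 sets of 4 libraries, and chance alone passes about 1.6, or 1 in 20. The case is the highest value in WT library R4, with 4728 normalized counts of Pde2a. The part of that library in the value of this gene is given above by the fit without it.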

How the results depend on the processing

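No paired analysis was possible because no column could be tied to a litter or an embryo. Of the 9 members, 4 were past the thresholds, and between 2 and 5 with a library left out, the lowest without WT library R4, where Gucy1a3 and Pde2a were not called, and the highest without WT library R2, where Prkg2 was. Pde2a was not past them in 10 of 13 settings, among them DESeq2. Over all genes, 540 past the thresholds became 426 to 847 with a library left out and 833 without both KO library R1 and WT library R4, a setting chosen after seeing the data. The 9 past an adjusted p of 0.05 became 70 with DESeq2, 20 without both libraries and 2 to 11 with 1 left out. The cause was not tested. Mtap9, near 0, turned to -0.015 without KO library R2 and to -0.0022 without WT library R2, and was 0.13 without both KO library R1 and WT library R4. Prkg2, Pde11a and Nuak1 were not tested where at least 10 counts in every library were asked for. Low counts limit what can be said of Prkg2 and Pde11a.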
